A study of Mus musculus with 32 samples.

Results

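Keratin genes of simple and of stratified epithelium were followed in mouse tumours irradiated with carbon ions or photons. The rows were chosen by symbol: the simple, ductal keratins Krt7, Krt8, Krt18 and Krt19, the basal and squamous keratins Krt5, Krt14, Krt17, Krt6a and Krt13, and Trp63, the gene of the transcription factor p63. These are 10 genes of the 55103 in the deposited table, and all 10 were found. The data are 32 libraries of bulk RNA from tumours of the line KPC36, which the labels call malignant; KPC lines come from pancreatic tumours of mice. Of 4 groups of 8 libraries, carbon_ctrl and photon_ctrl are the untreated controls of the carbon-ion and the photon arm, and carbon_treated and photon_treated are the irradiated tumours. The design text gives collection at days 4 and 7 after treatment. The day of each library, the dose, the host strain and the genotype of the line were not given in the sources used here, and nothing in the labels says that libraries of a group came from separate animals, so p-values measure the spread between these libraries, which may in part be technical. All groups share the same line, and KPC36 is a single line, so the values describe tumours of this line. Titles start with D in 4 carbon controls and 3 carbon-irradiated libraries and with M in the other 25; the meaning of the letters was not given in the sources used here.

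Keratins are the intermediate filament proteins of epithelial cells. Each filament pairs a type I with a type II keratin: Krt8 (type II) pairs with Krt18 (type I) in simple, single-layered epithelium, and Krt7 (type II) and Krt19 (type I) join them in ducts such as those of the pancreas. Krt5 (type II) and Krt14 (type I) form the pair of the basal layer of stratified epithelium, where p63 is the lineage factor; Krt6a and Krt17 are induced in wounded or activated epidermis, and Krt13 belongs to the inner lining of mouth and oesophagus. In pancreatic cancer, ductal tumours carry the simple keratins, and a basal-like or squamous form is described by the basal ones.

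Because keratins are a family of similar genes, the coding stretch at the end of the rod domain is printed for the type I members to show how far they can be told apart. It is 60 bases long, was read from the reference transcripts, and capitals mark bases that are the same in all of them. The 5 type I keratins share 39 of the 60.
Krt18: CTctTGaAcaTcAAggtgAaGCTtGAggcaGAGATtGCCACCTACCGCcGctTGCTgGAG
Krt19: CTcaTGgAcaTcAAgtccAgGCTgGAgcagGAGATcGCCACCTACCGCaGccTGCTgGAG
Krt14: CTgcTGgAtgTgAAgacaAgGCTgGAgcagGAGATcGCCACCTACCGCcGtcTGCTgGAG
Krt17: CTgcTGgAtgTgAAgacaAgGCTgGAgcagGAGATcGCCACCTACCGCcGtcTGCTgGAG
Krt13: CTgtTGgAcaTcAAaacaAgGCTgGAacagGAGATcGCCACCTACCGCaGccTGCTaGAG
Krt14 and Krt17 were identical over this stretch (60 of 60 bases), and Krt19 and Krt13 shared 53. Over whole transcripts, the share of 50-base runs that also occur in another gene was 0% in Krt7, Krt19, Krt13 and Trp63 and 0.72% in Krt18. It was 26.9% in Krt8, all 514 runs shared with the pseudogene Krt8-ps, which itself had at most 9.29 CPM in any library. Among the basal keratins it was 3.99% in Krt17, 8.52% in Krt5, 14.4% in Krt14 and 49.5% in Krt6a, whose closest relative is Krt6b. The counts are estimates that can divide a read among similar transcripts, so low values of Krt6a, Krt14 and Krt5 are less certain than those of Krt13 or Trp63.

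The coordinates are those of GRCm38, the build that mm10 also names. The type II members lie on chromosome 15: Krt7 at chr15:101411043-101430313 on the plus strand, and Krt6a (chr15:101689910-101694307), Krt5 (chr15:101707070-101712898) and Krt8 (chr15:101996698-102004482) on the minus strand. Krt18 (chr15:102028180-102032027, plus strand) is the type I gene next to Krt8, with 23697 bases between them. The other type I members lie on chromosome 11 on the minus strand: Krt13 at chr11:100117327-100121566, Krt19 at chr11:100140810-100148665, Krt14 at chr11:100203162-100207548 and Krt17 at chr11:100256217-100261029. Krt13 and Krt19 are 19243 bases apart, with Krt15 between them. Trp63 is at chr16:25683763-25892102 on the plus strand.

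Library totals ranged from 13892423 counts in a photon-irradiated library (replicate 3) to 71645740 in a carbon-irradiated one (replicate 7). Levels are given as CPM, counts scaled to a library total of 1000000 after correction by trimmed means of M values (TMM). A count of 0 allows up to 3 counts, which is 0.196 CPM at the lowest and 0.0458 CPM at the highest depth, for counting error only. After a filter on low counts, 20474 genes were tested, among them 7 of the 10 members; Krt5, Krt17 and Krt6a did not pass the filter, so no statement on tested members covers them. In these bulk samples, fewer cells of a type and less RNA per cell cannot be told apart.

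The simple keratins were abundant in every library. Krt8 ranged from 690.1 to 1719 CPM with a median of 1155, Krt18 from 633 to 1225 with a median of 881, Krt19 from 233 to 959.6 with a median of 507, and Krt7 from 240.4 to 668 with a median of 479.8. The highest library held 1.93 times the lowest for Krt18, 2.49 times for Krt8, 2.78 times for Krt7 and 4.13 times for Krt19, so Krt19 varied most and Krt18 least. Together the 4 genes took between 0.206% and 0.433% of all counts. Per length of transcript, the mean level over libraries was 619.8 CPM per kb for Krt18, 586.6 for Krt8, 349 for Krt19 and 204 for Krt7. These put Krt18 at rank 74, Krt8 at 81, Krt19 at 178 and Krt7 at 379 of 19896 genes. On this scale Krt8 was above Krt19 and Krt19 above Krt7 in 32 of 32 libraries. In CPM, the log2 ratio of Krt8 to Krt18 was positive in all groups but the photon controls, where it ran from -0.0323 to 0.453. Per length, Krt18 was above Krt8 in 25 of 32, so the order of the partners depended on the scale. For comparison on the same scale, Vim, the intermediate filament gene of mesenchymal cells, had a mean of 876 CPM per kb (rank 44), Cdh1 (E-cadherin) 195 and Epcam, an epithelial surface marker, 26.4.

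The basal and squamous keratins lay far lower. Summed over the 5 genes, they gave between 0.275 and 5.89 counts per 1000 counts of the simple keratins. Per length, means over libraries were 0.649 CPM per kb for Krt13 (rank 12824), 0.547 for Krt14, 0.202 for Krt5, 0.117 for Trp63, 0.104 for Krt6a and 0.0566 for Krt17. Without carbon control replicate 5 and photon-irradiated replicate 2, the means were 0.0138 for Krt5, 0.0101 for Krt17 and 0.00724 for Krt6a, all below Trp63 (0.103), while Krt13 (0.663) and Krt14 (0.401) kept their place. Krt13 was above Krt14 on this scale in 23 of 32 libraries. Krt13 ranged from 0.407 to 2.43 CPM (median 1.05, 10 to 153 counts), Krt14 from 0.195 to 5.80 CPM (median 0.723, 5 to 253 counts) and Trp63 from 0.0598 to 1.96 CPM (median 0.305, 2 to 78 counts). Krt5 was at 0 counts in 26 libraries, Krt17 in 24 and Krt6a in 22.

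**Figure D1:**
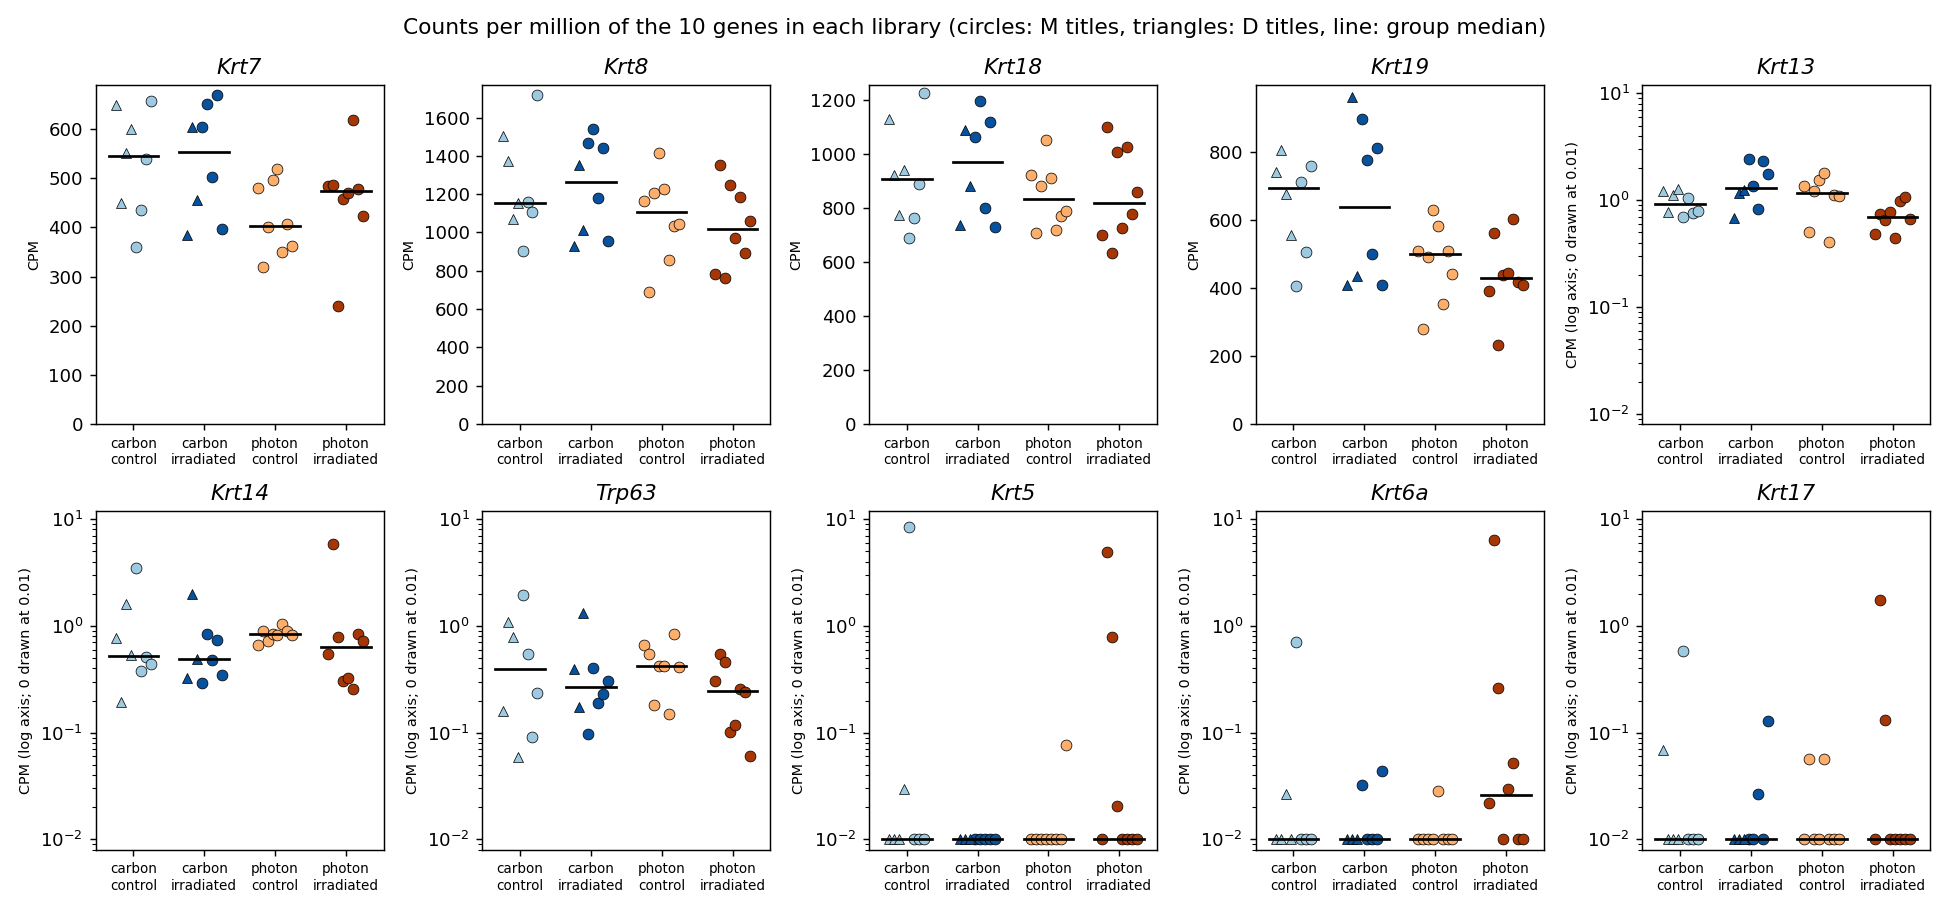
CPM of each of the 10 genes (vertical axes, linear from 0 for the simple keratins and logarithmic for the others, with 0 drawn at 0.01) in each library of the 4 groups; circles have M titles, triangles D titles, and the line is the group median. The simple keratins lie between 233 and 1719 CPM in all groups, with overlapping groups, while Krt5, Krt6a and Krt17 are at or near 0 except in a carbon control and in photon-irradiated libraries.

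Most counts of Krt5, Krt17 and Krt6a came from 2 libraries, which also held the highest Krt14 values, while Krt14 had counts in all 32. In carbon control replicate 5, Krt5 had 336 counts (8.43 CPM), Krt14 139 (3.49 CPM), Krt6a 28 (0.702 CPM) and Krt17 23 (0.577 CPM), and Trp63 had its highest value of all libraries, 78 counts (1.96 CPM). In photon-irradiated replicate 2, Krt6a had 277 counts (6.35 CPM), Krt14 253 (5.80 CPM), Krt5 213 (4.88 CPM) and Krt17 77 (1.77 CPM), while Trp63 had 24. Photon-irradiated replicate 3, the shallowest library, had 12 counts of Krt5, 4 of Krt6a and 2 of Krt17. In the other 29 libraries no more than 3 counts were seen of Krt5, of Krt17 or of Krt6a. By count Krt5 led in the first of the 2 libraries and Krt6a in the second.

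Other genes that stood high in these libraries differed too. The adipocyte and hormone receptor genes, the further keratins, Krtdap, Dsc3 and Dsg3 named here were chosen after their values were seen. In carbon control replicate 5, the receptor genes Prlr (prolactin) and Pgr (progesterone) were at 30.0 and 14.2 CPM, against at most 1.88 and 1.61 CPM in any other library. The adipocyte genes Adipoq, Plin1 and Lep were at 23.2, 24.2 and 6.80 CPM there, against at most 5.05, 5.56 and 1.71 CPM elsewhere, and Krt15, a keratin of basal cells, was at 0.753 CPM against at most 0.426. In photon-irradiated replicate 2, Krt6b and Krt16, the partners of activated epidermis, were at 1.72 and 1.44 CPM, against at most 0.0653 and 0.383 elsewhere. The differentiation gene Krtdap and the desmosomal genes Dsc3 and Dsg3 were at 0.482, 0.894 and 1.83 CPM there, against at most 0.0454, 0.554 and 1.80. These belong to a squamous programme list of 24 desmosomal, cornified envelope and hemidesmosomal genes. That list summed to 688 CPM in photon-irradiated replicate 2, within the 522 to 711 CPM of its group. In carbon control replicate 5 it summed to 500.8 CPM, the lowest of its group. Of the suprabasal epidermis list (10 genes such as Krt1, Krt10, Lor and Flg), 8 were at 0 in carbon control replicate 5 and 6 in photon-irradiated replicate 2. The summed level of that list was 3.34 and 5.64 CPM in these libraries, against 2.64 to 5.64 CPM over all libraries. Photon-irradiated replicate 2 was thus the highest of all, closely followed by carbon-irradiated replicate 2 with 5.62 CPM. Of 15 hair follicle genes, 8 and 10 were at 0, with sums of 1.68 and 0.986 CPM, against 0.106 to 1.68 CPM over all libraries, so carbon control replicate 5 was the highest of all. Skeletal muscle genes summed to 2.38 and 1.26 CPM, within the 1.25 to 3383 CPM over all libraries; 5 other libraries were also under 5 CPM. What part other cell types had in the basal keratin counts was not tested. The simple keratins summed to 2358 CPM in carbon control replicate 5, the lowest of its group, and to 3494 CPM in photon-irradiated replicate 2, the highest of its group.

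**Figure D2:**
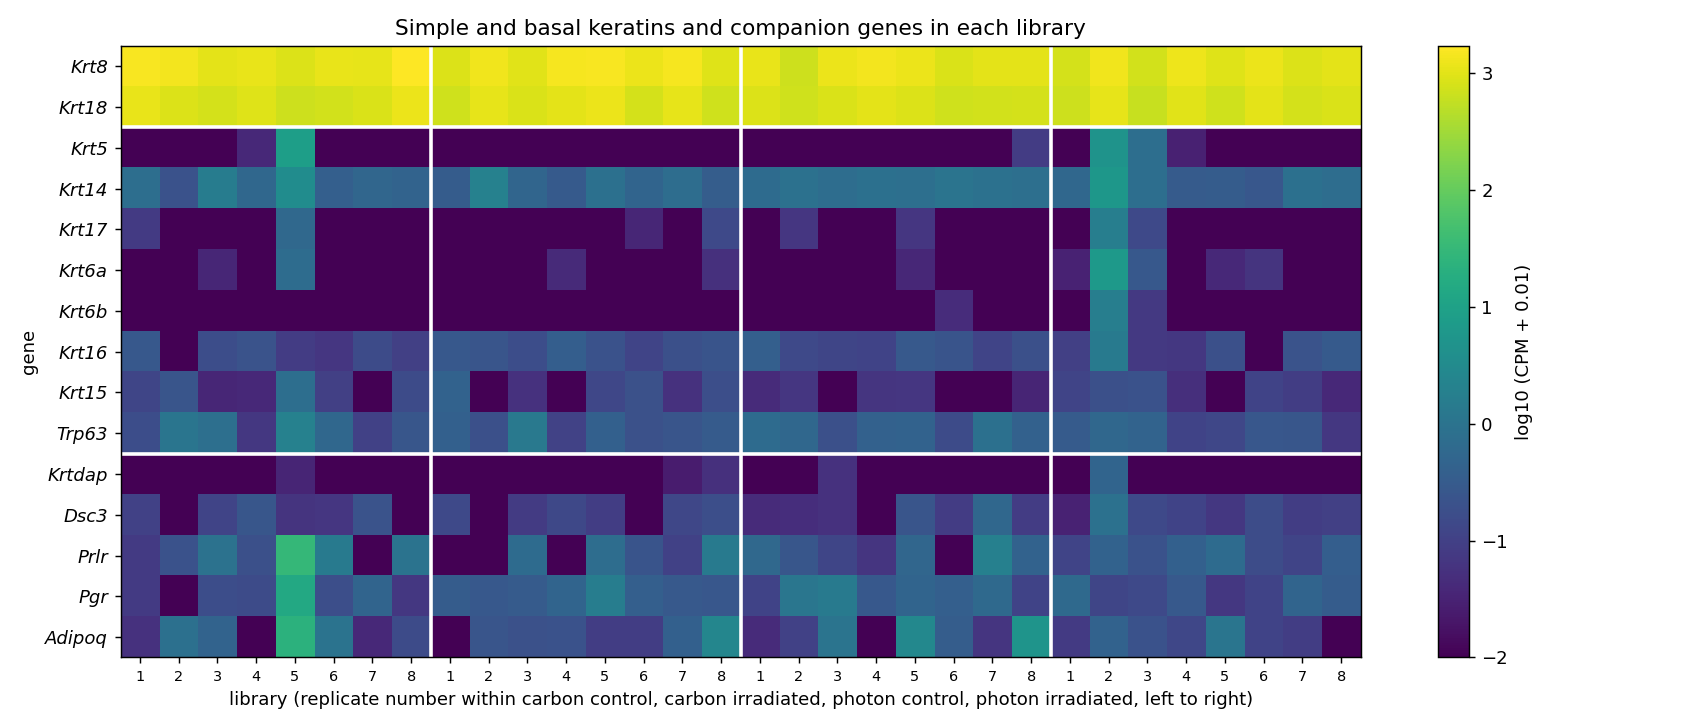
Level of simple keratins (top), basal keratins and Trp63 (middle) and companion genes (bottom) as log10 (CPM + 0.01), one column per library, grouped from left to right as carbon control, carbon irradiated, photon control and photon irradiated. Krt5, Krt17 and Krt6a stand out in replicate 5 of the carbon controls and replicate 2 of the photon-irradiated libraries, with Prlr, Pgr and Adipoq high only in the first and Krt6b and Krtdap only in the second, while Krt8 and Krt18 are high in all 32.

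After carbon ions the fitted changes of the 4 simple keratins lay within -0.02 to 0.05 on the log2 scale, while Krt13, Krt14 and Trp63 had larger values with wider intervals. Of the 7 members tested, 0 had an edgeR adjusted p under 0.05, where 0% of all genes tested passed (0 of 20474); at an unadjusted p under 0.05 there was 1 member, Krt13, and 5.75% of all genes, and DESeq2 also called 0 members. Krt8, the most abundant type II member by count, ran from 904 to 1719 CPM (median 1155) in the controls and from 929.7 to 1539.7 CPM (median 1266) after carbon ions, with overlapping groups. Its log2 fold change was -0.02 (95% interval -0.32 to 0.28, adjusted p = 0.997). Krt18 had a log2 fold change of 0.05 (-0.21 to 0.32), Krt7 of 0.01 (-0.30 to 0.31) and Krt19 of 0.01 (-0.39 to 0.41). These intervals leave room for changes of up to about 1.33-fold in Krt19 and 1.25-fold in Krt18. Krt13 ranged from 0.702 to 1.28 CPM (median 0.918) in the controls and from 0.687 to 2.43 CPM (median 1.31) after carbon ions. Its highest libraries, carbon-irradiated replicates 4 and 7 with 2.43 and 2.34 CPM, lay above every control, and 6 of 8 irradiated libraries were above the control median. The log2 fold change was 0.62 (0.06 to 1.18), with an unadjusted p of 0.0298 and an adjusted p of 0.777. Krt14 (log2 fold change -0.53, interval -1.68 to 0.62) and Trp63 (-0.64, interval -1.77 to 0.49) had wide intervals. The value of Krt14 turned to 0.11 without carbon control replicate 5, and that of Trp63 was -0.09. Without carbon-irradiated replicate 3 Trp63 had -1.28, and without carbon-irradiated replicate 2 Krt14 had -0.98.

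The title letters split this comparison. With the M-titled libraries alone, the log2 fold change of Krt13 was 1.11 (adjusted p = 0.446), and with the D-titled libraries alone it was -0.08 (adjusted p = 0.999), so its direction did not hold within both. The simple keratins had values from 0.13 (Krt8) to 0.21 (Krt19) among M titles and from -0.22 (Krt7) to -0.05 (Krt18) among D titles, none of which passed the threshold. Photon libraries carry no D title, so no such split could be made there.

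After photons the simple keratins also showed no difference that passed the test. In this comparison 3.81% of all genes passed and 0 of the 7 members; at an unadjusted p under 0.05 there was 1 member, again Krt13, with 21.5% of all genes, and DESeq2 called 0 members. Krt19, the most variable of the simple keratins, ran from 280.2 to 627 CPM (median 498) in the photon controls and from 233 to 603 CPM (median 428) after photons. Its groups overlapped almost fully, with 6 of 8 irradiated libraries below the control median. The log2 fold change was -0.12 (95% interval -0.52 to 0.28, adjusted p = 0.778). Krt7 had a log2 fold change of 0.13 (-0.17 to 0.44), with 7 of 8 irradiated libraries above the control median, Krt8 of -0.06 (-0.36 to 0.23) and Krt18 of 0.02 (-0.25 to 0.28). Krt13 ran from 0.407 to 1.78 CPM (median 1.17) in the photon controls and from 0.444 to 1.06 CPM (median 0.697) after photons. All 8 irradiated libraries lay below the control median, although 2 controls, replicates 2 and 6 with 0.506 and 0.407 CPM, were as low. The log2 fold change was -0.63 (-1.21 to -0.06), with an unadjusted p of 0.0308 and an adjusted p of 0.179. Trp63 had a log2 fold change of -0.79 (-1.99 to 0.41). Krt14 had 0.55 (-0.60 to 1.69), a value that rested on photon-irradiated replicate 2: without that library it was -0.63.

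The difference between the effects of the beams was tested directly. Of all genes, 0.0781% passed (16 of 20474) and 0 members; at an unadjusted p under 0.05 there was 1 member, Krt13, with 13% of all genes, and DESeq2 called 0 members. For Krt13 the carbon-ion effect minus the photon effect was 1.26 on the log2 scale (0.46 to 2.05) with unadjusted p = 0.00304, adjusted p = 0.159. It lay between 1.11 and 1.38 when any 1 library was left out. Among M titles it was 1.74 (adjusted p = 0.167). The simple keratins differed by -0.12 (Krt7) to 0.13 (Krt19), with adjusted p-values of at least 0.814, and the 95% interval for Krt18 ran from -0.34 to 0.42. Krt14 had -1.07 (-2.69 to 0.55), which became 0.10 without photon-irradiated replicate 2, and Trp63 had 0.15 (-1.47 to 1.77). Trp63 had -0.49 without carbon-irradiated replicate 3 and 0.70 without carbon control replicate 5.

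The irradiated groups were compared with each other, and here 1 member passed: Krt13 was higher after carbon ions than after photons. In this comparison 5.08% of all genes passed. At an unadjusted p under 0.05 there were 2 members, Krt13 and Krt19, and 25.2% of all genes. The Krt13 levels of the carbon-irradiated libraries were 0.687, 0.832, 1.17, 1.26, 1.37, 1.78, 2.34 and 2.43 CPM from low to high. In the photon-irradiated libraries they were 0.444, 0.484, 0.653, 0.660, 0.734, 0.775, 0.978 and 1.06 CPM. The groups overlapped, with the 2 lowest carbon-irradiated libraries inside the photon range and 7 of 8 above the photon median. The means were 1.48 ± 0.647 CPM (SD, n = 8) and 0.724 ± 0.216 CPM (SD, n = 8), and the fitted log2 fold change was 1.04 (standard error 0.28, 2.05-fold, 95% interval 1.39- to 3.04-fold, edgeR adjusted p = 0.0322). The values rest on 10 to 153 counts per library. Among M titles alone it was 1.31 (adjusted p = 0.0274). The call is close to the threshold: it was lost when any one of carbon-irradiated replicates 2, 4, 5 or 7 (adjusted p 0.057, 0.0561, 0.0595 and 0.0667) or photon-irradiated replicates 1, 3 or 5 (0.0750, 0.0736 and 0.0510) was left out, while the log2 fold change stayed between 0.91 and 1.16. It was also lost with the groups of the contrast alone (1.04, adjusted p = 0.0824) and without the filter on low counts (1.03, adjusted p = 0.063).

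Krt19 was the nearest to the threshold among the simple keratins in this comparison. Its levels ran from 407 to 959.6 CPM (median 636) in the carbon-irradiated and from 233 to 603 CPM (median 428) in the photon-irradiated libraries. Of the carbon-irradiated libraries, 6 of 8 were above the photon median, and 4 of them were above every photon-irradiated library, while the others lay within the photon range. The means were 649 ± 234 CPM (SD, n = 8) and 437 ± 112 CPM (SD, n = 8), with a log2 fold change of 0.57 (95% interval 0.17 to 0.97), an unadjusted p of 0.00669 and an adjusted p of 0.0759. DESeq2 gave an adjusted p of 0.0438, and edgeR gave 0.0428, 0.0391 and 0.0452 without carbon-irradiated replicate 1, 3 or 8. The log2 fold changes of the other simple keratins were 0.26 for Krt8 (-0.04 to 0.56), 0.22 for Krt7 (-0.08 to 0.53) and 0.16 for Krt18 (-0.11 to 0.42). The median of the 4 simple keratins was 0.24, beside 0.01 over all genes tested. Trp63 had 0.62 (-0.58 to 1.81), and -0.01 without carbon-irradiated replicate 3. Krt14 had -0.82 (-1.96 to 0.33), and 0.36 without photon-irradiated replicate 2.

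Untreated tumours of the carbon-ion and the photon arm also differed in many genes: 9.14% of all genes passed between the controls of both arms, and 0 of the 7 members. At an unadjusted p under 0.05 there were 2 members, Krt7 and Krt19, with 23.1% of all genes, and DESeq2 called 0 members. Krt19 ran from 404 to 804 CPM (median 693) in the carbon controls and from 280.2 to 627 CPM (median 498) in the photon controls. Of the carbon controls, 7 of 8 were above the photon control median, with overlapping ranges. The log2 fold change was 0.44 (0.04 to 0.84), with an unadjusted p of 0.0310 and an adjusted p of 0.161. Krt7 ran from 359.7 to 657 CPM (median 545) against 320.0 to 519 CPM (median 404), with a log2 fold change of 0.35 (0.04 to 0.65) and an adjusted p of 0.150. With the M-titled libraries alone these were 0.34 for Krt19 and 0.27 for Krt7, with adjusted p-values of 0.493 and 0.512. Krt8 had 0.21 (-0.09 to 0.51), Krt18 0.12 (-0.15 to 0.39), Krt13 -0.22 (-0.78 to 0.34), Krt14 0.26 (-0.89 to 1.40) and Trp63 0.47 (-0.67 to 1.60). Without carbon control replicate 5 the value of Krt14 turned to -0.38 and that of Trp63 to -0.09. The difference of 0.57 in Krt19 between the irradiated groups thus stood beside a difference of 0.44 between their untreated controls; for Krt13 the corresponding values were 1.04 and -0.22. Carbon and photon libraries differ by arm as well as by beam, and in the comparison of the irradiated groups these cannot be told apart.

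**Figure D3:**
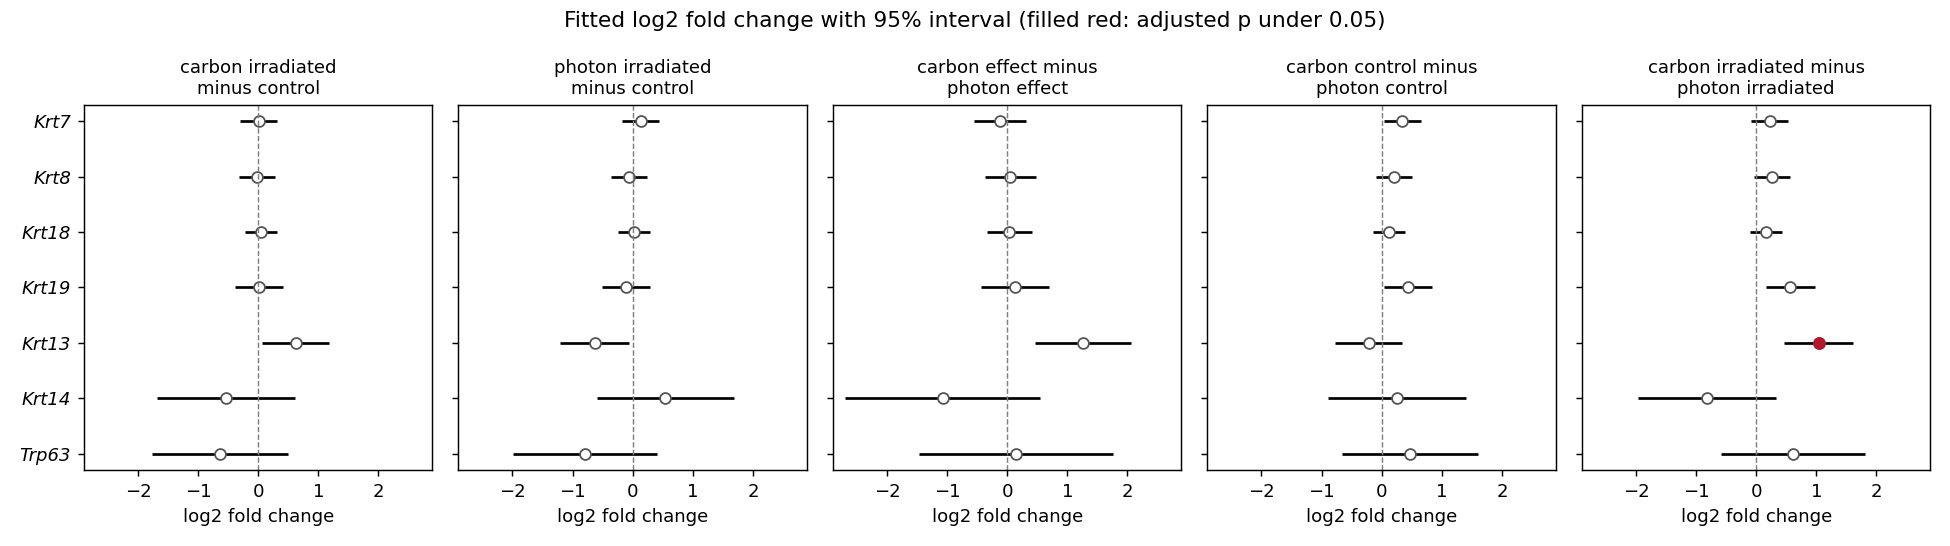
Fitted log2 fold change (points) with its 95% interval (lines) for the 7 members tested, in the 5 comparisons from left to right; the dashed line is no difference and a filled red point has an adjusted p under 0.05. The only filled point is Krt13 between the irradiated groups (1.04), and the intervals of Krt14 and Trp63 are the widest in each panel.

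The simple keratins varied together from library to library. Levels were taken as log2 CPM after subtraction of the group mean, over 32 libraries, and permutations were made within groups. Krt8 and Krt18, the filament partners, had a Pearson r of 0.92 and a Spearman rho of 0.93, each with a permutation p of 1e-05, the smallest that 100000 permutations can give, and adjusted values of 3.75e-05 and 4.29e-05 over the 30 pairs computed. The r was 0.93 without the 2 libraries farthest from the Krt8 median, 0.93 among the 25 M-titled and 0.91 among the 7 D-titled libraries. The 5 other pairs of simple keratins had r from 0.74 (Krt7 with Krt8) to 0.86 (Krt8 with Krt19), rho from 0.739 to 0.835, all with the same adjusted p of r; without the 2 farthest libraries r was between 0.71 and 0.85. Among D titles their r ran from 0.61 to 0.84 and among M titles from 0.76 to 0.87. The log2 ratio of Krt8 to Krt18 accordingly had a standard deviation of only 0.08 to 0.16 within groups, and that of Krt7 to Krt19 of 0.15 to 0.34. The mean log2 ratio of Krt8 to Krt18 was 0.44 in the carbon controls and 0.38 after carbon ions; for photons it was 0.34 in the controls and 0.27 after irradiation, with overlapping ranges.

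Krt13, at far lower level, varied with the simple keratins to a lesser degree. Its r was 0.55 with Krt19, 0.54 with Krt8, 0.50 with Krt7 and 0.49 with Krt18, with rho from 0.47 to 0.56 and adjusted permutation p-values of r from 0.00581 to 0.00667 and of rho from 0.00405 to 0.0156. Without the 2 libraries farthest from the Krt13 median r was 0.43 to 0.47, and among M and D titles r was 0.62 and 0.32 with Krt19, 0.56 and 0.44 with Krt8, 0.44 and 0.84 with Krt7, and 0.485 and 0.554 with Krt18. There were between 0.0972 and 0.436 counts of Krt13 per 100 counts of Krt19.

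**Figure D4:**
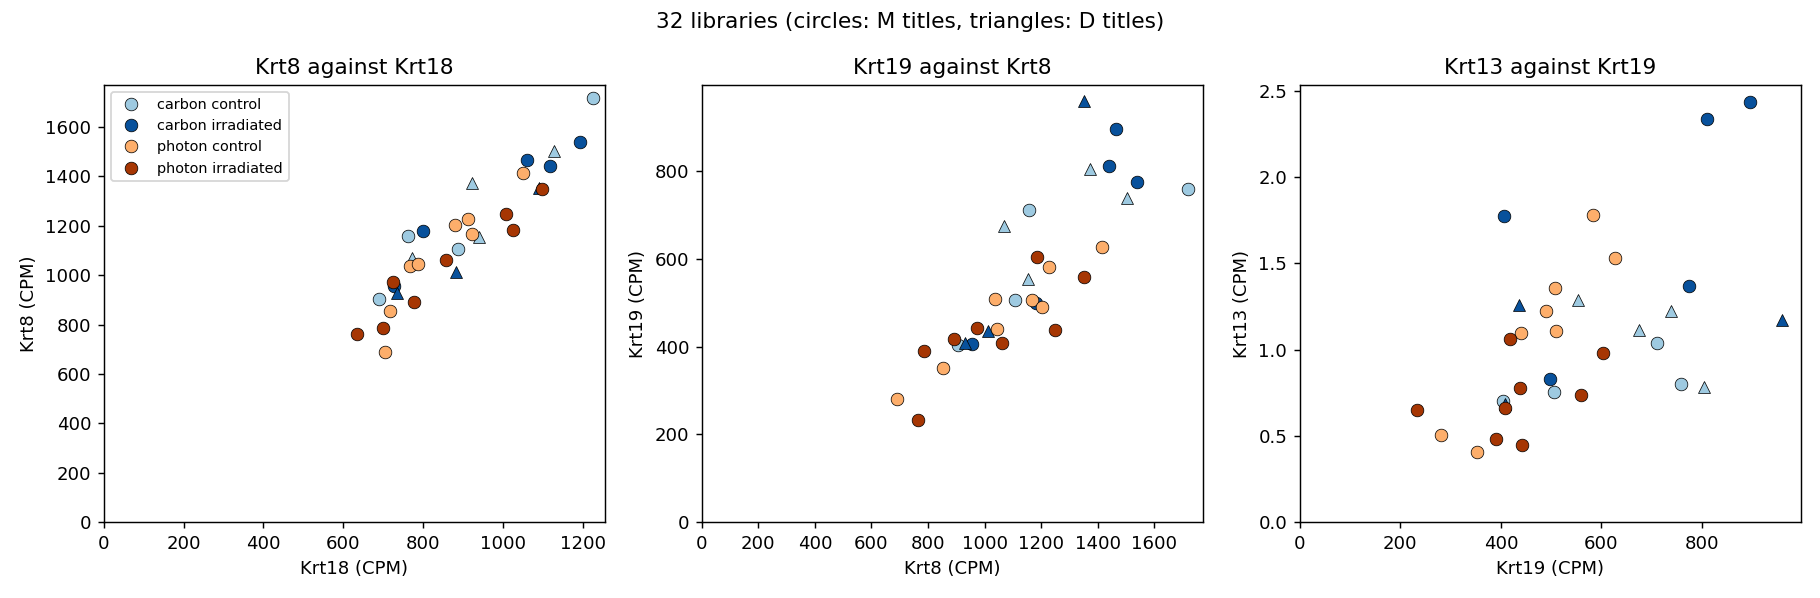
CPM of Krt8 against Krt18, of Krt19 against Krt8 and of Krt13 against Krt19, one point per library, coloured by group, with circles for M and triangles for D titles; all axes are linear and start at 0. The first pair lies closest to a line (r = 0.92 on the log2 scale within groups), the second scatters more (0.86), and Krt13 against Krt19 is the widest (0.55).

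The same was done with markers of epithelial, mesenchymal, stromal and immune cells, since bulk tumours hold several cell types. The simple keratins varied with Cdh1, with r from 0.64 (Krt8) to 0.82 (Krt19) and adjusted p-values of at most 3.00e-04, and with Vim, with r from 0.41 (Krt7) to 0.74 (Krt8) and adjusted p-values of at most 0.0409. With Ptprc, the gene of the leukocyte antigen CD45, r ran from -0.44 (Krt18) to -0.35 (Krt8); 3 of these 4 pairs had an adjusted p under 0.05 (0.0271 to 0.0409) and Krt8 had 0.0854. With Epcam r ran from 0.14 to 0.40, and the adjusted p of r was under 0.05 for Krt7 (0.0454) and that of rho for Krt7 (0.00706) and Krt18 (0.0468). Among D titles r with Epcam was 0.21 for Krt7 but -0.12 for Krt8, -0.16 for Krt18 and -0.28 for Krt19, so its sign did not hold within both letters. With the collagen gene Col1a1 r ran from -0.29 to -0.17, with adjusted p-values of at least 0.149. Among D titles r with Ptprc ran from -0.92 (Krt18) to -0.71 (Krt19) over 7 libraries, and among M titles from -0.33 to -0.22 over 25. The Spearman coefficient had the sign of r in each of these marker pairs. Without the 2 libraries farthest from the keratin's median, r was 0.66 to 0.85 with Cdh1, 0.42 to 0.69 with Vim and -0.55 to -0.37 with Ptprc. What part the mix of cells had in the joint variation of the keratins was not tested.

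The genes most like each member in this variation were ranked by r over the 32 libraries, as a description; the points share library depth and cell mix. For Krt7 they were Lad1, a gene of the basement membrane zone of epithelia (r = 0.87), Prr13 (0.85), F2rl1, a protease-activated receptor gene (0.82), Stx7 (0.81) and Tmem79 (0.81). For Krt8 they were Avil (0.91), Pgd, a pentose phosphate enzyme gene (0.90), Rbbp7 (0.90), Pgm2 (0.89) and Akr1b8 (0.88). For Krt18 they were Pgm2 (0.86), Cct7, a subunit gene of the chaperonin that folds tubulin and actin (0.86), Anxa4 (0.85), Uprt (0.84) and Lad1 (0.84). Pgm2 was thus ranked for Krt8 and Krt18, and Lad1 for Krt7 and Krt18. For Krt19 they were Degs1, a ceramide synthesis gene (0.91), Msl3 (0.90), Pitpnb (0.89), Vsig1 (0.89) and Aimp2 (0.89). For Krt14 the values were lower: Tmem199 (0.61), BC039966 (0.60), Mthfsl (0.57), Spag7 (0.56) and Cidec, a lipid droplet gene (0.55), of which Cidec fell to 0.19 without the 2 libraries that held basal keratins. For Trp63 they were Tlcd4 (0.76), Hsd11b1 (0.72), Lpin1 (0.69), Cecr2 (0.69) and Cacnb1 (0.67), with 0.68 to 0.81 without those libraries.

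Levels of the rest of the keratin family are given by their mean over libraries. The table held 54 keratin genes, of which 6 were at 0 in every library and 15 were tested, 9 of them no members. The highest of the others by mean CPM were Krt20, a keratin of intestinal and other simple epithelia (166.6 CPM), Krt23 (45.9), Krt80 (15.02), Krt79 (4.203) and Krt10, a suprabasal epidermal keratin (2.29). None of the 9 passed the threshold by edgeR in any of the 5 comparisons; the smallest adjusted p was 0.0686, for Krt79 between the controls of both arms (log2 fold change -0.64). Of the 4 genes listed here as other simple keratins (Krt20, Krt23, Krt80 and Krt222), all tested, edgeR called 0 in each comparison. At most 1 had an unadjusted p under 0.05, and DESeq2 called 0. Of 2 other stratified keratins tested, edgeR called 0, also with at most 1 at an unadjusted p under 0.05. DESeq2 called 1, between the controls of both arms (beside 2379 of 20474 genes in all), as did edgeR without photon control replicate 2. Without that library edgeR also called 1 for the photon effect.

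Related gene lists are given by their counts of calls by edgeR. After carbon ions 0 genes of any list passed, and at most 1 gene of a list had an unadjusted p under 0.05; DESeq2 also called 0. For the difference of the effects edgeR called 0 genes of the lists, beside 16 of 20474 genes in all. DESeq2 called 1 of the 12 genes listed as keratin anchors and linkers and 2 of 4 mesothelial genes, beside 262 of 18886 genes in all. At an unadjusted p under 0.05 there were up to 6 genes in a list (macrophage and T cell genes, 10 tested), beside 13% of all genes. With 1 library left out, edgeR called 1 or 2 mesothelial genes in 6 of 32 fits (2 without carbon-irradiated replicate 2) and 1 anchor or linker gene without photon control replicate 2.

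After photons, where 3.81% of all genes passed (21.5% before adjustment), 2 of 19 glandular epithelium genes passed, both higher: Ehf, an epithelial transcription factor (log2 fold change 0.84), and Prom1 (0.66). The median of that list was 0.26, beside -0.02 for the simple keratins and 0.00 over all genes tested. Its count ran from 0 to 3 with 1 library left out, and was 0 without photon control replicate 3 or photon-irradiated replicate 7. Of 16 squamous programme genes tested (desmosomal, cornified envelope and hemidesmosomal genes), 0 passed, with 4 at an unadjusted p under 0.05. DESeq2 called 1 of them, beside 1524 of 19680 genes in all. Without any one of photon control replicates 2, 4 or 6, edgeR called 1. Of the 12 anchor and linker genes, 0 passed, with 3 at an unadjusted p under 0.05, 0 calls by DESeq2, and 1 by edgeR without photon control replicate 2. The mesothelial gene Wt1 (-1.69) fell and Msln (0.43) rose, the fibroblast genes Pdgfrb (-0.52) and Fap (-0.59) fell, and among macrophage and T cell genes Csf1r (-0.54) fell and Cd8a (1.23) rose. With 1 library left out, the counts ran from 1 to 2 in the mesothelial list, and from 0 to 3 in the fibroblast and in the macrophage and T cell list. They moved by over 1.5 times in 8, 10 and 11 of 32 such fits. At an unadjusted p under 0.05 there were 7 of 10 fibroblast and 8 of 10 macrophage and T cell genes, with list medians of -0.52 and -0.54. Of 10 skeletal muscle genes edgeR called 0 and DESeq2 3, all 10 had an unadjusted p under 0.05, and the list median was -2.99. Their summed level had a median of 671.9 CPM in the untreated libraries of that arm, and of 8.63 CPM in the irradiated ones. The part of these cell types in the values of the keratins and the glandular genes after photons was not tested.

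Between the controls of both arms, where 9.14% of all genes passed (23.1% before adjustment), 10 of 19 glandular epithelium genes passed, 8 higher in the carbon controls and 2 lower, with a list median of 0.69 beside 0.28 for the simple keratins and -0.02 over all genes. The 3 with the smallest adjusted p were Ehf (1.002), Grhl2, a regulator of epithelial identity (1.40), and Cldn7, a tight junction gene (1.19). The list count was between 5 and 10 when any 1 library was left out, and 3 among M titles. It was 5 without carbon control replicate 8 or photon control replicate 6, and 6 without carbon control replicates 2, 3, 4 or 7 or photon control replicate 3. Of the squamous programme, 4 of 16 passed, all higher in the carbon controls, among them Pkp1, a desmosomal plaque gene (1.0001), Perp (0.70) and Sprr1a, a cornified envelope gene (0.83). Of 9 mesenchymal genes, 4 passed, all lower in the carbon controls, with Cdh2 (-0.65), Fn1 (-0.72) and Snai1 (-0.83) first. That count fell to 2 in 23 of 32 fits with 1 library left out, and to 1 among M titles. Of 4 mesothelial genes tested, Wt1 (-2.01) and Gpm6a (-1.74) passed as lower and Msln (0.36) as higher, a count that was 1 without carbon control replicate 7. Of 10 fibroblast genes, Pdgfra (-0.77) and Col1a2 (-0.59) passed as lower, a count that ran from 0 to 5 with 1 library left out and moved by over 1.5 times in 28 of 32 such fits. Summed fibroblast genes ran from 6614 to 17690 CPM in the carbon controls and from 13040 to 27830 CPM in the photon controls. Of the anchor and linker genes, 0 of 12 passed, with 4 at an unadjusted p under 0.05. DESeq2 called 1, beside 2379 of 20474 genes in all, and edgeR called 1 in 4 of 32 fits with 1 library left out. What part these genes' cells had in the Krt7 and Krt19 values of 0.35 and 0.44 between the same controls was not tested.

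Between the irradiated groups, 1 of 16 squamous programme genes passed, the laminin gene Lama3 (log2 fold change 1.43), and 1 of 19 glandular genes, Cldn7 (1.39), both higher after carbon ions. These are shares near the 5.08% of all genes that passed. At an unadjusted p under 0.05 there were 9 of 16 squamous and 6 of 19 glandular genes (25.2% of all genes), with list medians of 0.41 and 0.33 beside 0.01 over all genes. Of the 12 genes listed as keratin anchors and linkers, 3 passed, all lower after carbon ions: Macf1 (-0.28), Eppk1 (-0.49) and Dst (-0.35). They encode large linker proteins of the cytoskeleton, not all of them specific to keratin filaments. With 1 library left out, these counts ran from 0 to 5 for the squamous, 0 to 3 for the glandular and 0 to 3 for the linker genes, and moved by over 1.5 times in 14, 8 and 7 of 32 fits. Of 10 macrophage and T cell genes, Csf1r (0.54) and C1qa (0.58) were higher after carbon ions, and 0 passed without any one of carbon-irradiated replicates 2 or 5 or photon-irradiated replicates 1, 3 or 7. The summed level of that list ran from 292 to 543 CPM in the carbon-irradiated and from 202 to 367 CPM in the photon-irradiated libraries. Of 10 skeletal muscle genes, 0 passed by edgeR, but all 10 had an unadjusted p under 0.05 (25.2% of all genes did). DESeq2 called 3 of them, beside 1947 of 19680 genes in all. Without any one of carbon-irradiated replicates 1, 4 or 8, edgeR called 1. The sum of these muscle genes ran from 3.68 to 3383 CPM after carbon ions and from 1.25 to 362.5 CPM after photons. The part of either cell type in the Krt13 difference was not tested. Of the suprabasal epidermis genes 2 were tested and of the hair follicle genes 1. In each comparison edgeR called 0 of them, with at most 1 of a list at an unadjusted p under 0.05. Between the irradiated groups DESeq2 called 1 suprabasal gene, as did edgeR without carbon-irradiated replicate 3 or photon control replicate 6. Without photon control replicate 6 edgeR also called 1 suprabasal gene for the photon effect.

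Upstream sequence is shown for the members that set the contrast in these data: Krt13, the member with an adjusted p under 0.05 between the irradiated groups in the edgeR model of all libraries, and Krt5, which was present in 3 libraries above 3 counts. The sequences are the 250 bases before the annotated start, from RefSeq on GRCm38.p6, written in the direction of the gene. Capitals mark the motifs ATAAA (searched on the gene's strand in the last 40 bases) and TGANTCA, a motif bound by AP-1 factors (searched on both strands of the whole stretch).
Krt13 (chr11:100121567-100121816, minus strand): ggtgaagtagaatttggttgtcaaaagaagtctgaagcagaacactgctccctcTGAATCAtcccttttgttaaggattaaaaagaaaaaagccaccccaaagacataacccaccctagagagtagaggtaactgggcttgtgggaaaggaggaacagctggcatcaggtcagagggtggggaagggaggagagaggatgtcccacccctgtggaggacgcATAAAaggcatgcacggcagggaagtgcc
Krt5 (chr15:101712906-101713155, minus strand): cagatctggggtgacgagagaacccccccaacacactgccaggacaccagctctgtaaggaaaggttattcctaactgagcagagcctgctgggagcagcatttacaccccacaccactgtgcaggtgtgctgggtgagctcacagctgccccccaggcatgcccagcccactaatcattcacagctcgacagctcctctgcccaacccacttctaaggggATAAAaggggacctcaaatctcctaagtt
Each of these held ATAAA near the start, as 5.5% of 32851 mouse promoters of that length did, and Krt13 held 1 TGANTCA, as 6.75% did. Their GC content was 50.4% and 56%, beside a median of 52.4% over all promoters. RefSeq has a second Krt13 start, 989 bases downstream, whose 250 bases (chr11:100120578-100120827) held 0 ATAAA in the last 40 bases, 2 TGANTCA and 39.6% GC. The first was printed because it ends at the start of the gene as annotated by GENCODE. A match describes letters in this window and shows no binding. RefSeq promoters were found for 6 of the 10 members.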

How the data were processed

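Bulk RNA sequencing gave 32 libraries of tumour tissue. Per the labels' protocols, RNA came from tumour pieces kept in RNAlater, and stranded mRNA libraries were made with an Illumina kit. The submitters' processing notes name FastQC 0.12.0, Trimmomatic 0.32, RSEM 1.3.3 and the build mm10; the annotation, the strand setting and any rescaling were not given in the sources used here. The authors deposited expected counts per gene, estimated counts that need not be whole, as 1 table of all libraries. The design had assumed whole counts, so each value was rounded, which changed library totals by at most 0.00403%.

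Counts were tested with edgeR 4.0.16 in R 4.3.3: filterByExpr by group (minimum count 10), TMM scaling, 1 quasi-likelihood model with a coefficient for each of the 4 groups over all 32 libraries, and 5 contrasts. Benjamini-Hochberg adjustment of the p-values ran over the 20474 genes tested (threshold 0.05). Intervals (95%) come from the standard error implied by the F statistic. Log2 CPM used a prior count of 2. Alternatives were DESeq2 1.42.0, other scalings, no filter, unrounded values, the groups of a contrast alone, M titles alone, the title letter as a covariate and each library left out; leaving out both libraries with basal keratins and D titles alone were chosen after seeing the data. The edgeR and ranking scripts were tested on simulated data. Coding stretches are given for type I members; those of the type II members are not reported here. Sequences came from GENCODE M21 and RefSeq, and 50-base runs were compared over all GENCODE transcripts. Per-length levels divide mean CPM by the median length of a gene's transcripts.

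The members and lists were chosen with earlier results of these data known. Text names all members, the 3 genes with the smallest adjusted p among those called of each list, the 5 genes most like each tested member other than Krt13 by r (predicted genes, listed genes and members passed over) and the 5 highest other keratins. The adipocyte and hormone receptor genes, the companion keratins Krt6b, Krt16 and Krt15, Krtdap, Dsc3, Dsg3 and the marker pairs for correlations were chosen after values were seen.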

Additional observations from a re-analysis of the deposited data

Results flagged for a closer look

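Of 34 combinations of a member and a group with more than 3 counts in some library, 10 had a library far from the other 7 of its group, where the gap to the nearest library, as a share of the group's range, exceeded Dixon's 95% critical value for 8 samples; chance gives about 1 in 20 for normally distributed values. That rate does not hold for Krt5, Krt17 and Krt6a (6 of the 10), which were at or near 0 in most libraries, so that any library with counts stands apart. Krt5, Krt14, Krt17 and Krt6a were each set apart in the same 2 libraries, so these 8 values are not independent of each other. In carbon control replicate 5 they were at 8.43, 3.49, 0.577 and 0.702 CPM, against 0.0299, 1.59, 0.0681 and 0.0265 CPM in the next highest control. In photon-irradiated replicate 2 they were at 4.88, 5.80, 1.77 and 6.35 CPM, against 0.783, 0.849, 0.131 and 0.261 CPM in the next highest library of that group. The other 2 values were in carbon-irradiated libraries: Krt14 at 1.99 CPM (68 counts) in replicate 2, against 0.845 CPM in the next, and Trp63 at 1.33 CPM (57 counts) in replicate 3, against 0.402 CPM. Neither of those carbon-irradiated libraries held a count of Krt5.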

How the results depend on the processing

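No paired analysis was possible because the labels number no replicates within a group, so the numbers used here only name libraries. The number of members past the threshold was the same in each alternative run for the carbon-ion effect, the difference of the effects and the controls of both arms. For the photon effect it became 1 without the filter (Krt6a, log2 fold change 6.87, adjusted p = 0.0266, resting on photon-irradiated replicate 2). Between the irradiated groups it became 0 with the groups of the contrast alone (Krt13 adjusted p = 0.0824), 2 with DESeq2 (Krt13 and Krt19), and 0 to 2 with 1 library left out. Without the filter it was 1 there too, with Krt6a (-6.32, adjusted p = 0.0355) in place of Krt13 (adjusted p = 0.063).

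None of the values that changed sign had passed the threshold, and the cause was not tested. With upper quartile scaling these were, for the carbon-ion effect, Krt7 -0.0176 and Krt19 -0.0241, and, for the difference of the effects, Krt8 -0.00989 and Krt18 -0.0201. With M titles alone they were Krt8 0.13 (carbon), Krt7 0.07 and Trp63 -0.75 (difference) and Trp63 -0.0645 (irradiated groups). With DESeq2 they were Krt14 -0.58 (photon), 0.0621 (difference) and 0.32 (irradiated groups). Without both libraries with basal keratins they were Krt7 -0.0555, Krt19 -0.062 and Krt14 0.12 (carbon), Krt18 -0.0382 and Krt14 -0.63 (photon), Krt14 0.74 (difference), Krt14 -0.37 and Trp63 -0.0677 (controls), and Krt14 0.37 (irradiated groups). With D titles alone the carbon-ion values were Krt7 -0.22, Krt18 -0.0536, Krt19 -0.20, Krt14 0.26, Krt13 -0.0775 and Trp63 0.30.

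With 1 library left out, the ranges that crossed 0 were as follows. Carbon-ion effect: Krt7 -0.0562 to 0.0703, Krt8 -0.0722 to 0.0694, Krt18 -0.00293 to 0.13, Krt19 -0.0911 to 0.0924, Krt14 -0.98 to 0.11. Photon effect: Krt8 -0.14 to 0.0124, Krt18 -0.0443 to 0.0806, Krt14 -0.63 to 0.70. Difference: Krt8 -0.0271 to 0.13, Krt18 -0.0262 to 0.11, Krt14 -1.52 to 0.10, Trp63 -0.49 to 0.70. Controls: Krt14 -0.38 to 0.41, Trp63 -0.0858 to 0.65. Irradiated groups: Krt14 -1.26 to 0.36, Trp63 -0.0143 to 0.91. Of 286 values of the members under alternatives between the irradiated groups, 268 kept direction and side of the threshold. Low counts limit what can be said of Krt5, Krt17 and Krt6a, which were at or under 3 counts in all but 3 libraries. What part depth had in this was not tested.

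Counts over all genes moved more. After carbon ions 0 genes passed, 17 with DESeq2 and 2 with D titles alone. After photons 781 passed, 431 without the filter and 1524 with DESeq2. For the difference, 16 passed, 94 with upper quartile scaling, 4 without the filter, 1 with M titles alone, 262 with DESeq2 and 8 without both libraries with basal keratins. Between controls 1871 passed, 973 with M titles alone and 1081 with the title letter. Between irradiated groups 1041 passed, 319 without the filter, 57 with the groups of the contrast alone, 502 with the title letter and 1947 with DESeq2. With 1 library left out these counts ran, in the same order, from 0 to 5, 239 to 1656, 5 to 108, 1178 to 2196 and 108 to 2159.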
